A study of Mus musculus with 11 samples.

Results

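Skeletal muscle genes ranged from barely above the array's floor to among the brightest signals in these mammary tumours, and 4 of the 11 tumours carried them at a high level. Those 4, called muscle-rich here, were 1 of the 6 PyMT tumours (replicate 5) and 3 of the 5 PyMT/SIRT6 tumours (replicates 1, 4 and 5). The other 7, called muscle-poor, were 5 PyMT and 2 PyMT/SIRT6 tumours. The groups were chosen from measured values, by a mean log2 intensity of 5 skeletal muscle markers above 9. The muscle genes thus describe the grouping and carry no test. All tumours arose spontaneously in females of 12 weeks. In PyMT mice the mammary gland expresses middle T, an oncogene of polyoma virus, and the PyMT/SIRT6 mice carry in addition a Sirt6BAC allele that overexpresses Sirt6. Both groups thus share the PyMT transgene (promoter and strain background: not given in the sources used here). RNA of each tumour was read on 1 Illumina array (Mouse WG-6 v2.0). Whether each tumour came from a separate mouse is not in the labels, so the p-values reflect sample-to-sample spread, which may be technical.

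Skeletal muscle fibres contract through the sliding of myosin along actin, under the control of calcium released from the sarcoplasmic reticulum and sensed by troponin. Fast fibres and slow fibres use different forms of myosin, troponin and the calcium pump, and muscle has its own forms of many enzymes that regenerate ATP, such as creatine kinase and the late enzymes of glycolysis. The mammary gland lies in a fat pad under the skin, with muscle layers close by.

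Pairwise correlations of the 11 arrays over all tested features lay between 0.944 and 0.992, and those among the muscle-rich arrays between 0.973 and 0.992. Sirt6 followed the genotype labels: PyMT tumours lay at 7.64 to 7.88, all below the 8.19 to 8.64 of PyMT/SIRT6 tumours (exact two-sided permutation test, p = 0.002165, the smallest the 462 splits can give). Values below are log2 intensities. A change is the muscle-rich minus the muscle-poor difference on that scale from a limma fit with genotype as covariate, given ± its standard error (4 against 7 arrays). In bulk tumours, fewer cells of a type and less RNA per cell cannot be told apart.

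The mean of 5 markers, Mylpf, Eno3, Casq1, Acta1 and Ckm, separated the groups by a wide gap. In the muscle-rich tumours it was 10.46 in PyMT/SIRT6 replicate 1, 11.20 in PyMT/SIRT6 replicate 4, 12.05 in PyMT replicate 5 and 12.26 in PyMT/SIRT6 replicate 5, and this order is used for the 4 arrays below. The muscle-poor tumours ran from 7.32 to 8.58. PyMT replicates 2 (8.58) and 6 (8.55) lay just under the limit of 9, and the lowest muscle-rich array lay well above it.

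Acta1, the skeletal form of actin, read 12.93, 13.61, 14.45 and 14.54 in the 4 muscle-rich tumours. In the muscle-poor tumours it read 7.37, 10.63, 7.96, 8.51 and 10.37 in PyMT replicates 1, 2, 3, 4 and 6, and 9.23 and 7.43 in PyMT/SIRT6 replicates 2 and 3. The groups did not overlap, and the muscle-poor tumours alone spanned a wide range. Mylpf, the regulatory light chain of fast myosin, read 11.80, 12.79, 13.46 and 13.77 against 7.29 to 9.29 with a median of 7.82. Ckm, the muscle creatine kinase, read 10.08, 10.89, 12.39 and 12.34 against 7.18 to 7.98. Both followed the order of the marker mean, apart from the nearly equal top pair of arrays for Ckm. Eno3, the muscle enolase, read 9.97, 11.06, 11.94 and 12.06 against 7.34 to 7.99. Casq1, the calcium store protein of fast fibres, read 7.52, 7.63, 8.02 and 8.60 against 7.21 to 7.38. It was thus separated too, at a much smaller distance.

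**Figure D1:**
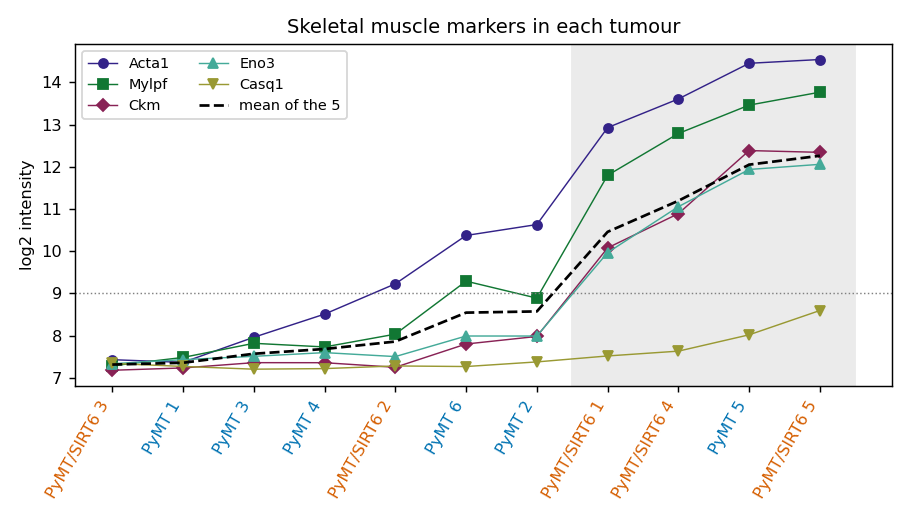
Log2 intensity of the 5 skeletal muscle markers and their mean (dashed) in each of the 11 tumours, ordered by that mean; label colour gives the genotype, the shaded area holds the 4 muscle-rich tumours and the dotted line marks the limit of 9. The mean runs from 7.32 to 8.58 in the muscle-poor tumours and from 10.46 to 12.26 in the muscle-rich tumours.

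Promoters of 3 of these muscle genes are shown because the genes moved together and hold letters of known muscle regulatory elements: the actin, a fast myosin heavy chain and a muscle glycolytic enzyme. Each is the 250 bases before the RefSeq transcript start (assembly GRCm38.p6), 5′ to 3′ on the gene's strand: Acta1 at chr8:123894776-123895025 on the minus strand, Myh4 at chr11:67237562-67237811 on the plus strand and Pgam2 at chr11:5803797-5804046 on the minus strand. Capitals mark the E-box CAGCTG, the letters CATTCC, the MEF2 site and the CArG box.
Acta1: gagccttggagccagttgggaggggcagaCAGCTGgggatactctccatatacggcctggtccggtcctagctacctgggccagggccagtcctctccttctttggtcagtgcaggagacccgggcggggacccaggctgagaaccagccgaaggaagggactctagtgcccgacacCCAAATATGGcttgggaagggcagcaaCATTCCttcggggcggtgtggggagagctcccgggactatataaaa
Myh4: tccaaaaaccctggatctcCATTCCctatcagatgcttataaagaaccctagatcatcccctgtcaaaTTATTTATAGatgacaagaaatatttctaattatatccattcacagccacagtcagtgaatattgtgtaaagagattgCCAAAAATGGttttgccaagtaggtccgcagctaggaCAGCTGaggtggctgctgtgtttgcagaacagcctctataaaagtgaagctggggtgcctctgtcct
Pgam2: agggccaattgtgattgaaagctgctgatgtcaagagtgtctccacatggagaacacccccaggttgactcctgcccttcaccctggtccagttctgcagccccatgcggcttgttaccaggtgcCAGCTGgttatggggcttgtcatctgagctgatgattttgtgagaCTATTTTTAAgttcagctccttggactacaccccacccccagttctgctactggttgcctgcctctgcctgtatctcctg
Acta1 holds CAGCTG with its first base at position -221 from the start, a CArG box at -73 and CATTCC at -46. Myh4 holds all 4 elements, and Pgam2 holds CAGCTG and a MEF2 site. Shares were counted over windows of 300 bases, 250 before and 50 after the start, so they can include matches outside the printed letters. RefSeq windows were matched for 35 of the 46 muscle-list genes called higher below. CAGCTG, which reads the same on both strands, stood in 45.2% of their 42 windows against 16.3% of all 32851 windows searched. These have the same length, and the windows of 1 chromosome were left out of the search. For the MEF2 site, searched on both strands, the shares were 19.0% and 3.19%, and for the CArG box 7.14% and 1.63%. CATTCC on either strand stood in 28.6% against 14.7%, and TATAAA in 14.3% against 13.6%. Windows were matched for 27 of the 34 genes called higher on no muscle list. Of these 39 windows 15.4% held CAGCTG, 10.3% the MEF2 site, 17.9% TATAAA, 5.13% the CArG box and 17.9% CATTCC. The E-box was thus about as frequent in their windows as in all. The MEF2 site (10.3% against 3.19%) and the CArG box (5.13% against 1.63%) were more frequent, in windows of 4 and 2 genes, and this was not tested. Windows of 1 gene can overlap and count the same site again. Among the 39, the 7 windows with CATTCC came from 4 genes, and the 2 windows of Ehbp1l1 hold the same CATTCC. All these are matches of letters only, and overlaps between elements were not removed.

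Across 14726 tested features, 87 (0.591%) were called higher in the muscle-rich tumours at an adjusted p of 0.05 and 1 (0.00679%) was called lower, 88 (0.598%) in all. Because the grouping itself came from muscle genes, nothing is read from these shares. Of the 87, 46 stood on the muscle lists, 34 were named genes on no muscle list and 7 had no single gene symbol. In 80 of the 87 the groups did not overlap, against 160 features (1.09%) without overlap in that direction among all tested. Leaving out PyMT replicate 5, the only muscle-rich PyMT tumour, left 30 called higher, of which 29 were among the 87. Leaving out PyMT/SIRT6 replicate 1, the muscle-rich tumour with the lowest markers, gave 143, and a block for deposit order gave 27. The block sets the arrays deposited earlier apart from those deposited later, and no label calls these batches. Most muscle-rich arrays came later and most muscle-poor arrays earlier, so block and muscle content cannot be fully told apart.

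Fast fibre genes stand on a muscle list and the grouping came from muscle markers, so their values are a description with no test. All 13 with a probe were tested, with changes from 0.58 to 5.50 and a median of 3.41, and in 12 the groups did not overlap. Tnnc2, fast troponin C, read 11.86, 13.03, 13.88 and 13.96 against 7.22 to 9.33, a change of 5.50 ± 0.50 or 45.1-fold. Myl1, the fast essential light chain, changed by 5.13 ± 0.62, Tnni2, fast troponin I, by 4.69 ± 0.39, and Tnnt3, fast troponin T, by 3.91 ± 0.38. The heavy chain Myh4 read 7.51, 7.82, 8.98 and 8.38 against 7.18 to 7.28, and Myh1 changed by 0.58 ± 0.11. The muscle-poor means of Myh4 and Myh1 (7.22 each) lay below the filter limit of 7.309 on dim features, so both passed it through the muscle-rich tumours alone.

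Slow fibre genes gave another picture. Of 14 slow or cardiac fibre genes with a probe, 11 stayed below 8 in every tumour, 7 passed the filter on dim features and 1 was called. The called gene, Csrp3, a LIM protein of the Z disc, read 8.97, 8.90, 9.95 and 9.18 against 7.24 to 7.50. Myl2, the slow regulatory light chain, read 7.25, 7.15, 7.56 and 7.61, whereas its highest value, 7.96, was in the muscle-poor PyMT replicate 2. Myl3, the slow essential light chain, also peaked there at 7.95 and read 7.23 to 7.66 in the muscle-rich tumours. Tnnt1, slow troponin T, changed by 0.32 ± 0.09 with overlapping groups. Atp2a2, the calcium pump of slow fibres that other cells also use, differed by -0.05 ± 0.18.

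**Figure D2:**
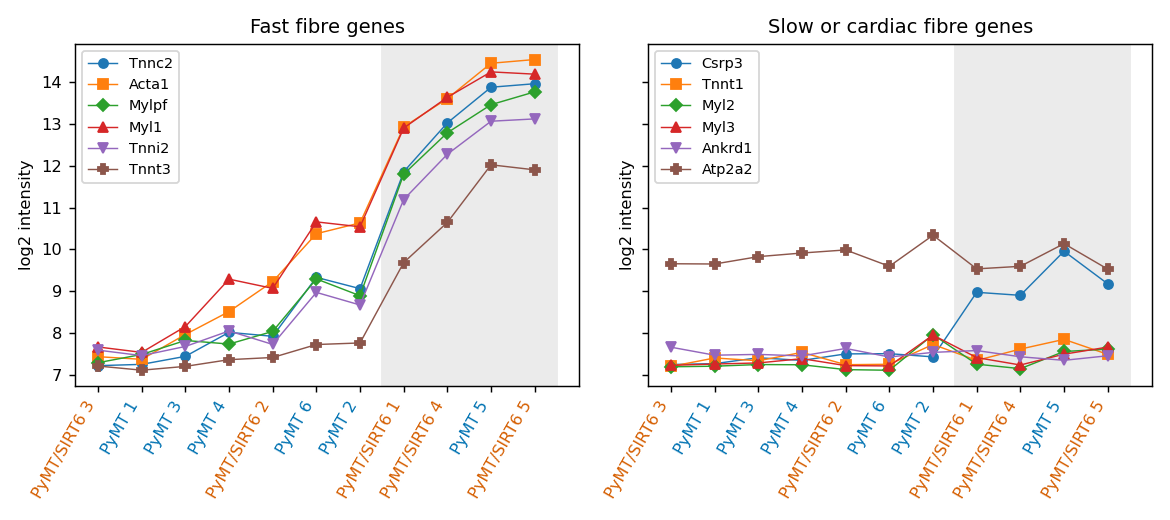
Log2 intensity of the 6 fast fibre genes (left) and the 6 slow or cardiac fibre genes (right) with the largest changes, in the 11 tumours ordered by the marker mean; the shaded area holds the 4 muscle-rich tumours. All 6 fast fibre genes are higher in the shaded area without overlap; on the right only Csrp3 is, and Myl2 and Myl3 are highest in PyMT replicate 2.

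Of 24 tested genes of the shared sarcomere and sarcolemma 22 had a positive and 2 a negative change, with a median of 0.72, and 13 were called higher. Tcap, which caps titin at the Z disc, read 9.73, 11.06, 12.01 and 11.43 against 7.22 to 8.19. Desmin (Des), the intermediate filament of muscle, read 9.53, 10.24, 10.99 and 10.88 against 7.36 to 7.89. Hspb6, a small heat shock protein of muscle, was bright in all tumours and changed by 2.41 ± 0.22. All 17 tested genes of excitation and calcium release had a positive change, with a median of 0.59, and 7 were called higher. Pvalb, the calcium buffer of fast fibres, had the highest change of any tested feature, 5.59 ± 0.51, and read 12.09, 12.78, 13.95 and 13.94 against 7.15 to 9.45. Atp2a1, the fast fibre calcium pump, changed by 5.25 ± 0.56, and Ryr1, the calcium release channel, by 1.67 ± 0.26.

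Titin (Ttn), the giant spring of the sarcomere, did not follow the marker order. It read 7.83, 8.73, 11.18 and 8.17 in the muscle-rich tumours against 7.17 to 7.36, so PyMT replicate 5 stood far above the other 3. Within PyMT the difference was 3.90 and within PyMT/SIRT6 it was 1.01. Only 1 PyMT tumour is muscle-rich, so genotype and that tumour cannot be told apart in this contrast. Ttn was 1 of 4 features (0.0272%) whose change differed between the genotypes in an interaction term.

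No gene of muscle precursors or of wasting muscle was called. Of 13 myogenic and satellite cell genes with a probe, 12 stayed below 8 in every tumour, 4 were tested and 0 were called (3 at an unadjusted limma p under 0.05). The myogenic factor Myog read 7.33 to 7.42 against 7.21 to 7.44. Mef2c, a transcription factor of muscle and other cells, differed by 0.56 ± 0.19. Of 12 tested atrophy and catabolic genes 0 were called by limma (1 at an unadjusted p under 0.05) and the median change was -0.01. Changes on this list were 6 positive and 6 negative, from -0.60 to 0.21. In 1 member the muscle-rich values all lay below the muscle-poor ones, as in 161 (1.09%) of all features. On the positive side, Fbxo32, a ubiquitin ligase of muscle atrophy, differed by 0.21 ± 0.18, and Trim63, another such ligase, by 0.14 ± 0.06.

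In energy metabolism muscle forms of enzymes were called higher and none of their widely expressed counterparts was called. Of 20 tested muscle forms 12 were called higher, with a median change of 1.11. Cox6a2, the muscle form of a cytochrome oxidase subunit, read 9.73, 10.74, 11.61 and 11.68 against 7.28 to 7.98. Pgam2, the muscle phosphoglycerate mutase, read 9.23 to 11.23 against 7.25 to 7.78. Ampd1, the muscle AMP deaminase, read 8.46, 9.27, 9.92 and 10.24 against 7.24 to 7.59. None of these 3 overlapped between the groups.

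Each muscle form was set beside the related form of the same protein family or step. Both forms were tested in 25 of 29 measured pairs, and the muscle form had the larger change in all 25. Among them 15 muscle forms and 0 of the other forms were called. The median change was 1.35 for the muscle forms and -0.13 for the others, whose range was -0.52 to 0.55. For creatine kinase, Ckm changed by 4.28 ± 0.38 and the brain form Ckb differed by -0.52 ± 0.28. For cytochrome oxidase, Cox6a2 changed by 3.60 ± 0.33 and Cox6a1 differed by -0.13 ± 0.09. For phosphoglycerate mutase, Pgam2 changed by 3.16 ± 0.32 and Pgam1 differed by -0.24 ± 0.18. For AMP deaminase, Ampd1 changed by 2.27 ± 0.27 and Ampd2 differed by -0.04 ± 0.05. Among structural pairs, Des changed by 2.93 ± 0.25 and vimentin (Vim) differed by -0.22 ± 0.18. The grouping rests on the 5 muscle markers, of which Ckm, Acta1 and Mylpf are muscle forms here, so the pairs are a description. Pdk4, paired with Pdk1, stands on no muscle list.

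**Figure D3:**
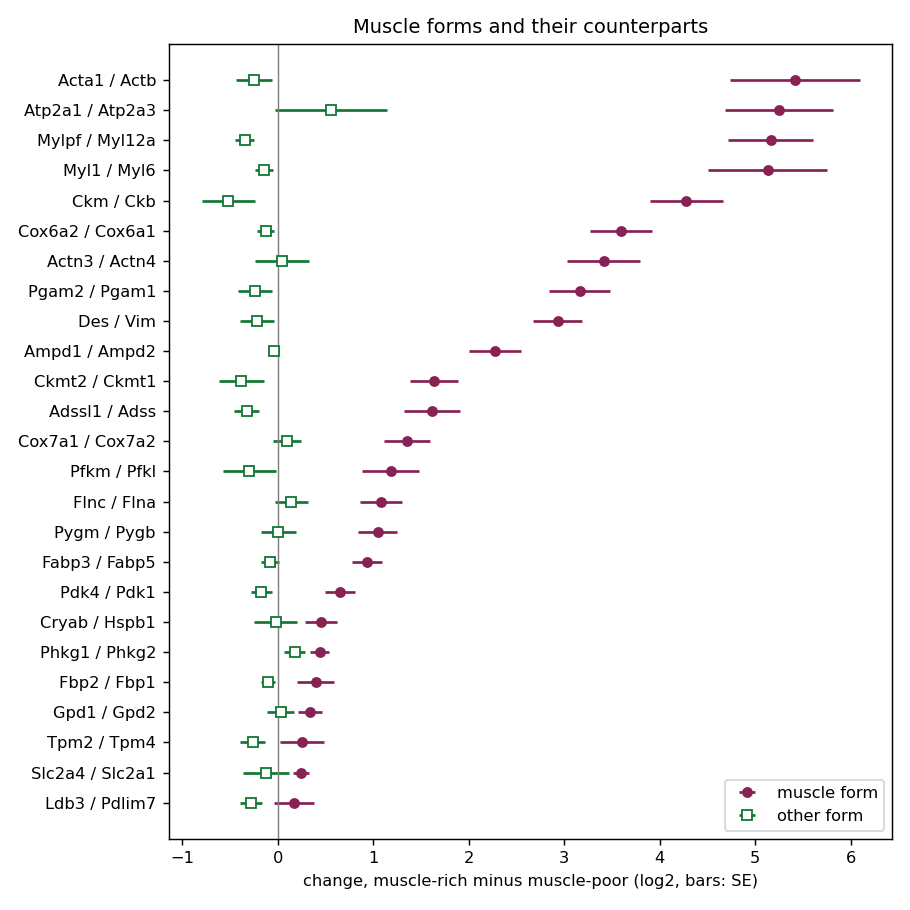
Change between muscle-rich and muscle-poor tumours (log2, bars: standard error) for the 25 pairs with both forms tested, muscle form as filled circle and related form as open square. The other forms lie between -0.52 and 0.55, and the muscle form lies to the right in every pair.

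No common pathway gene of metabolism was called. Over all 27 lists outside muscle, 343 genes on no muscle list were tested, and limma called 0 of them, with 23 higher and 10 lower at an unadjusted p under 0.05. The same unadjusted limit took 718 (4.88%) higher and 540 (3.67%) lower among all tested features. Their median change was 0.02, beside -0.01 over all features.

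No common glycolysis gene was called. Of 14 tested common glycolysis genes 12 had a negative and 2 a positive change, with a median of -0.08. The median was -0.25 without PyMT replicate 5, 0.20 without PyMT/SIRT6 replicate 2, and 0.04 with a block for deposit order. Aldoa, the aldolase that muscle and tumours both use, read 11.78, 11.88, 13.09 and 12.65 against 10.83 to 12.25, a change of 0.98 ± 0.33 (limma adjusted p = 0.36). It was high in PyMT replicate 5 and PyMT/SIRT6 replicate 5, while the other pair of muscle-rich tumours lay inside the muscle-poor range. Pgk1, phosphoglycerate kinase, differed by -0.45 ± 0.29.

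No ubiquitous mitochondrial gene was called. The 64 tested subunits of oxidative phosphorylation had a median change of 0.07, with 44 positive and 20 negative, beside 6672 positive and 8054 negative over all features. Without PyMT/SIRT6 replicate 2 the median was -0.04. Ndufa3, a subunit of complex I, read 12.73, 12.88, 12.52 and 12.55 against 11.93 to 12.44, without overlap but with an adjusted p of 0.386. Atp5b, the catalytic subunit of ATP synthase, differed by -0.29 ± 0.10. The 19 citrate cycle genes had a median of -0.01, and Ogdh differed by 0.55 ± 0.25, with 10.06 in PyMT replicate 5 against 8.74 to 9.11 in the other muscle-rich tumours. Perm1, a regulator of muscle mitochondria, differed by 0.44 ± 0.11 (adjusted p = 0.148).

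The 6 kinases and phosphatases of pyruvate dehydrogenase, which set the choice between sugar and fat as fuel, had 3 positive and 3 negative changes, with a median of -0.02, and limma called 0 (2 higher and 1 lower at an unadjusted p under 0.05). Pdk3 differed by -0.24 ± 0.11 and Pdk2 by 0.26 ± 0.09. Pdk4, the kinase that turns off pyruvate dehydrogenase when fat is burnt, read 7.64, 7.79, 7.90 and 8.60 in marker order against 7.17 to 7.41. The groups did not overlap and the change was 0.65 ± 0.16 (limma adjusted p = 0.129). It was called under 6 alternatives, such as array weights and no genotype covariate. Among the 21 tested genes of fatty acid uptake and oxidation, Fabp3, the heart and muscle fatty acid binding protein, and Cpt1b, the muscle carnitine palmitoyltransferase, were called; both also stand on a muscle list. Fabp3 read 7.89, 8.23, 8.35 and 8.79 against 7.29 to 7.77, and Cpt1b read 7.49, 7.77, 8.28 and 8.11 against 7.24 to 7.41. The median of the list was 0.06.

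No fat cell gene passed the threshold. All 12 tested adipocyte genes had a positive change, with a median of 0.27, and limma called 0 (4 at an unadjusted p under 0.05). The median was 0.14 with a block for deposit order, 0.15 with array weights, 0.59 with background subtraction and 1.04 when the dimmest 75% were dropped. Car3, the carbonic anhydrase abundant in fat cells and also in slow muscle, read 9.71, 10.85, 11.43 and 12.00 in marker order. Its lowest muscle-poor value was 7.52, the median 9.01 and the highest 10.95, in PyMT replicate 4. The change was 2.40 ± 0.67 (adjusted p = 0.22), and only PyMT replicate 4 reached into the muscle-rich range. Adipoq, the fat cell hormone adiponectin, read 8.77, 9.36, 10.09 and 9.83 against 7.52 to 10.39, and its highest value was again in PyMT replicate 4. Dgat2, of triglyceride synthesis, differed by 1.17 ± 0.48 and Lpl, lipoprotein lipase, by 1.02 ± 0.44.

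No brown fat gene was called. Of 5 tested, 1 of which (Cox8b) also stands on a muscle list, all had a positive change, with a median of 0.74. That median was 0.28 with no filter on dim features, 0.45 with a block for deposit order and 0.38 without PyMT replicate 5. Ucp1, the uncoupling protein of brown fat, read 7.74, 7.48, 8.53 and 7.90 in the muscle-rich tumours. Among the muscle-poor tumours it read 7.72 in PyMT replicate 4, 7.92 in PyMT replicate 6 and 7.12 to 7.19 in the other 5. The change was 0.79 ± 0.18 (adjusted p = 0.0965), and PyMT replicates 4 and 6 lay inside the muscle-rich range. Cox8b, a cytochrome oxidase subunit of both muscle and brown fat, differed by 2.05 ± 0.47. As a muscle-list gene it is described with no test. Cidea, a lipid droplet protein, differed by 0.74 ± 0.21 (limma adjusted p = 0.247). Whether fat tissue and muscle entered the same samples was not tested.

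No stromal gene was called. Of 22 tested fibroblast and matrix genes 17 had a positive change, with a median of 0.15, with 1 higher and 1 lower at an unadjusted limma p under 0.05. Dcn, the matrix proteoglycan decorin, read 10.49, 11.56, 11.01 and 11.48 against 9.44 to 11.64. Pdgfra, a fibroblast receptor, differed by 0.28 ± 0.15 and Igf1, a growth factor made by stroma, by 0.35 ± 0.16. With a block for deposit order the median of the list was -0.07, the opposite sign. Tendon genes, which could accompany muscle, had a median of 0.01 over 5 tested genes, and Tnmd, the tendon marker, read 7.31 to 7.42 against 7.26 to 7.34.

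Vessel genes gave no call in either direction. The 18 tested endothelial genes had 7 positive and 11 negative changes, with a median of -0.03, which became 0.02 when the arrays were centred on the luminal list. Tek, an angiopoietin receptor, differed by 0.11 ± 0.06 and Vwf, von Willebrand factor, by 0.13 ± 0.08. Both belong to the 7 positive changes, the smaller side of the list, whose changes ran from -0.21 to 0.22. Among 12 pericyte and smooth muscle genes, Rgs5, a pericyte marker, read 8.39, 7.82, 7.60 and 7.71 against 8.01 to 8.42 and differed by -0.46 ± 0.14 (adjusted p = 0.324). It lay below the muscle-poor range in 3 of the 4 muscle-rich tumours, and without PyMT/SIRT6 replicate 1 the change was -0.59 with an adjusted p of 0.0154. Acta2, smooth muscle actin, read 11.29, 11.84, 12.71 and 12.51 against 12.10 to 14.00, with overlapping groups, and differed by -0.63 ± 0.40 (adjusted p = 0.742).

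No epithelial gene was called. The 21 tested luminal genes had 14 negative and 7 positive changes, with a median of -0.09. Krt7, a luminal keratin, read 8.97, 8.86, 8.93 and 8.93 against 9.09 to 9.57, lower without overlap, by -0.34 ± 0.13 (adjusted p = 0.452). Mfge8, a milk fat globule protein, read 14.38, 14.54, 14.61 and 14.56 against 14.71 to 15.18, also without overlap (-0.34 ± 0.09, adjusted p = 0.213). Lalba, the milk protein alpha-lactalbumin, differed the other way, by 0.55 ± 0.20, so the secretory genes did not share a direction. All 16 tested proliferation genes had a negative change, with a median of -0.20, and 0 were called (2 at an unadjusted limma p under 0.05). Rrm2, the ribonucleotide reductase subunit of DNA synthesis, read 8.10, 8.10, 7.78 and 8.16 against 8.08 to 8.98. Without PyMT replicate 5 the median of the proliferation genes was -0.03, and with a block for deposit order it was -0.02.

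**Figure D4:**
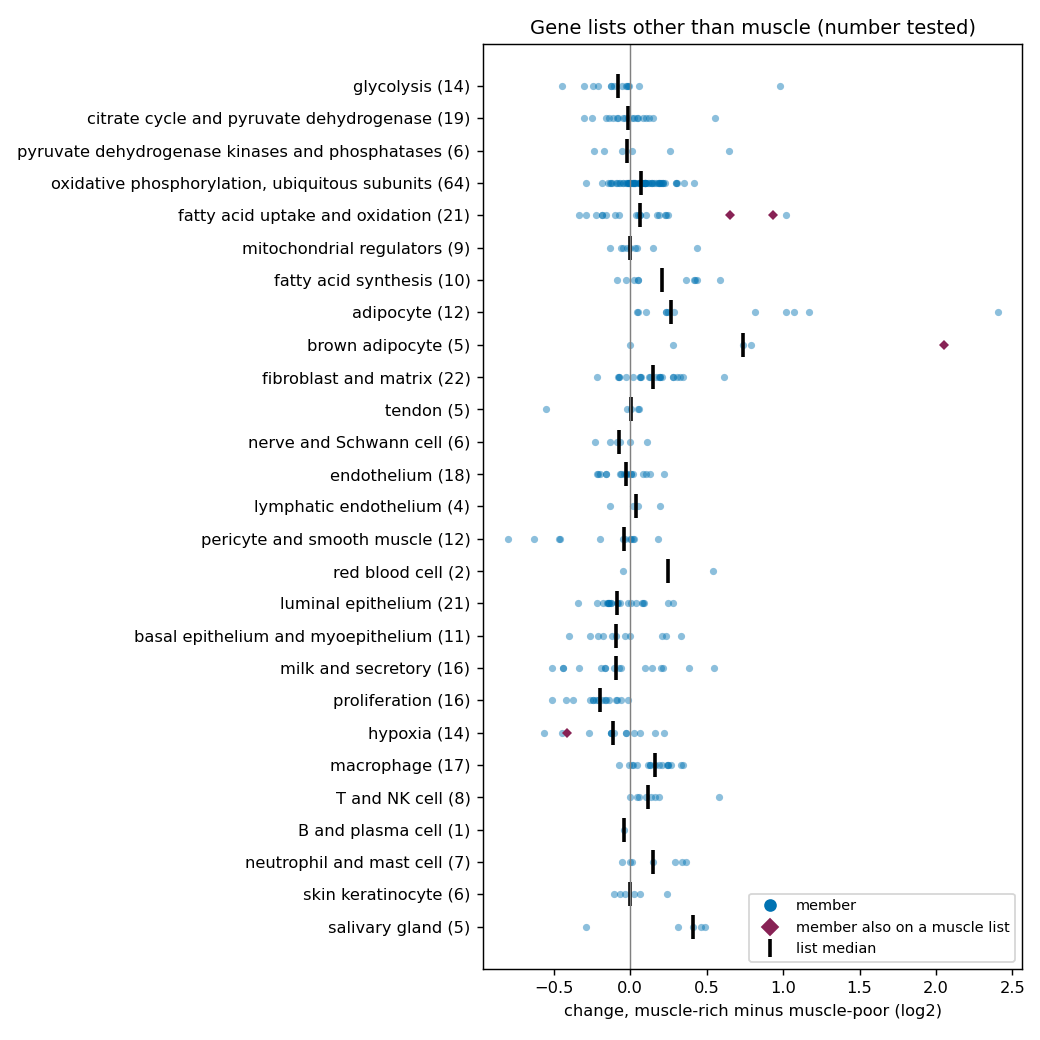
Change between muscle-rich and muscle-poor tumours (log2) for every tested member of the lists outside muscle, with the number tested in brackets; diamonds are members that also stand on a muscle list and bars are list medians. Medians lie between -0.20 and 0.27 except for the brown adipocyte (0.74) and salivary gland (0.41, and -0.24 without PyMT/SIRT6 replicate 1) lists, and the widest positive members belong to the fat lists, with Car3 at 2.40.

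No immune gene was called. Of 17 macrophage genes 15 had a positive change, with a median of 0.16, and of 8 T and NK cell genes 7 did, with a median of 0.12. With a block for deposit order these medians were -0.03 and -0.02. Of 7 tested neutrophil and mast cell genes 6 had a positive change, with a median of 0.15. Of the B and plasma cell genes only Mzb1, a chaperone of plasma cells, was tested, and it differed by -0.04 ± 0.05. Prf1, the pore protein of cytotoxic cells, read 8.44, 8.46, 8.29 and 7.86 against 7.51 to 7.94 and differed by 0.58 ± 0.14 (adjusted p = 0.146). It ran against the marker order, since its lowest muscle-rich value was in PyMT/SIRT6 replicate 5. Mcpt4, a mast cell protease, read 7.17, 7.90, 7.48 and 7.71 against 7.16 to 7.29.

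Genes on no muscle list that were called higher were 34, of which 28 followed the marker order of the 4 muscle-rich tumours (PyMT/SIRT6 replicate 1 lowest, then PyMT/SIRT6 replicate 4, then the top pair in either order). Among all features 1313 (8.92%) followed it, and so did 41 of the 46 on the muscle lists. The order was set by the 5 markers, 4 of which stand among the 46, so nothing is read from the 41. None of the 34 stood on any other list. In all 34 the difference was positive within both genotypes, and in 30 the groups did not overlap. The 34 were chosen by their call in this same contrast, so sign and separation follow largely from that choice. Their muscle-poor means were at most 8.04, so these genes were dim in tumours with little muscle. Some of these means, such as those of Ppp1r27 (7.17), Myoz3 (7.22) and Myo18b (7.25), lay below the filter limit of 7.309. Those genes passed the filter through the muscle-rich tumours alone. Several of the 34 are known from skeletal muscle although the lists lacked them, so they are not independent of the grouping and get no p here.

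Rpl3l, a ribosomal protein form restricted to striated muscle, read 8.89, 10.03, 10.82 and 11.00 against 7.10 to 7.57, a change of 3.05 ± 0.32. Eef1a2, the translation elongation factor form of muscle and neurons, read 8.77, 9.50, 10.58 and 10.51 against 7.23 to 7.64. Both belong to protein synthesis and neither overlapped between the groups. Fhl1, a LIM protein of muscle, read 9.62, 10.68, 11.44 and 10.89 against 7.62 to 8.40. Pde4dip, myomegalin, a scaffold protein, read 9.01, 9.90, 11.22 and 10.73 against 7.47 to 8.40. For Pde4dip another probe nearly as bright (mean 8.57 against 8.76) changed by 0.03, against 2.46 for the probe used. Dimmer probes of Pde4dip changed by 0.23 and 0.002, so its rise rests on the probe used.

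Genes of the thin filament, membrane repair and the Z disc were also among the genes called higher on no muscle list. Tmod4, the tropomodulin of skeletal muscle that caps thin filaments, changed by 2.22 ± 0.25. Trim72, of membrane repair, read 8.16, 8.92, 9.33 and 9.20 against 7.28 to 7.48. Ky, a protease-like protein needed for muscle growth, changed by 1.68 ± 0.27, Myoz3, a Z disc protein, by 1.12 ± 0.18, and Synm, the intermediate filament synemin, by 1.30 ± 0.18. Others were Rtn2 (1.66 ± 0.27), a reticulon of the endoplasmic reticulum, Mlf1 (1.35 ± 0.19), Neurl1a (1.21 ± 0.21), an E3 ubiquitin ligase, and Ndrg2 (1.12 ± 0.19). Ndrg2 overlapped, since PyMT/SIRT6 replicate 1 read 7.80 and the highest muscle-poor tumour 7.89. Ppp1r27 (1.05 ± 0.19) and Myo18b (1.00 ± 0.13) closed the 15 with the largest changes.

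No relation of the 34 genes to the muscle level was established inside the muscle-poor tumours alone, in an analysis chosen after seeing the data. The slope on the mean of the 5 markers was positive for 28 of the 34, beside 49.8% of all features, and limma called 0 of them. The 6 features it called (0.0407%) all stood on the muscle lists, so nothing is read from them.

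Nt5e, the surface enzyme that turns AMP into adenosine, was the only feature called lower. It read 8.50, 8.61, 8.06 and 8.44 in the muscle-rich tumours. In the muscle-poor tumours it read 9.15, 9.01, 9.03, 8.86 and 8.88 in PyMT replicates 1, 2, 3, 4 and 6, and 9.07 and 9.48 in PyMT/SIRT6 replicates 2 and 3. The groups did not overlap, and the change was -0.82 ± 0.12 (limma adjusted p = 0.00453). The difference was -0.92 within PyMT and -0.75 within PyMT/SIRT6. A dimmer Nt5e probe (mean 7.51 against 8.83) changed by -0.14, so the size of the change rests on the probe used. The call was lost without PyMT replicate 5, within PyMT/SIRT6 alone, with a block for deposit order and after centring on the luminal list, and the adjusted p ran from 0.000162 to 0.473 over 26 alternatives.

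The next 14 lower genes did not pass the threshold. Pik3r3, a regulatory subunit of phosphoinositide kinase, read 9.13, 9.45, 8.90 and 8.86 against 9.01 to 10.29 (-0.92 ± 0.23, adjusted p = 0.151). Igfbp3, a carrier of insulin-like growth factors, read 8.19, 8.03, 7.95 and 8.26 against 8.50 to 9.43, without overlap (-0.80 ± 0.19, adjusted p = 0.123). Fdps, which makes farnesyl diphosphate for sterol and isoprenoid synthesis, read 10.88, 10.64, 10.79 and 10.68 against 11.00 to 11.46 (-0.54 ± 0.12, adjusted p = 0.0965). Stc1, the secreted hormone stanniocalcin, read 7.51, 7.49, 7.48 and 7.40 against 7.59 to 7.86 (-0.31 ± 0.07, adjusted p = 0.0695). The others were Bpnt1, Gorasp2, Acad8, Cyp51, Usf1, Wbp4, Tedc1, Faim, B3galt5 and Cfap20, with changes from -0.55 to -0.16. For Usf1 another probe as bright (mean 8.04 against 8.06) changed by 0.17, against -0.40 for the probe used. Features with muscle-rich values all below the muscle-poor ones were 161 (1.09%), about as many as the 160 in the other direction.

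**Figure D5:**
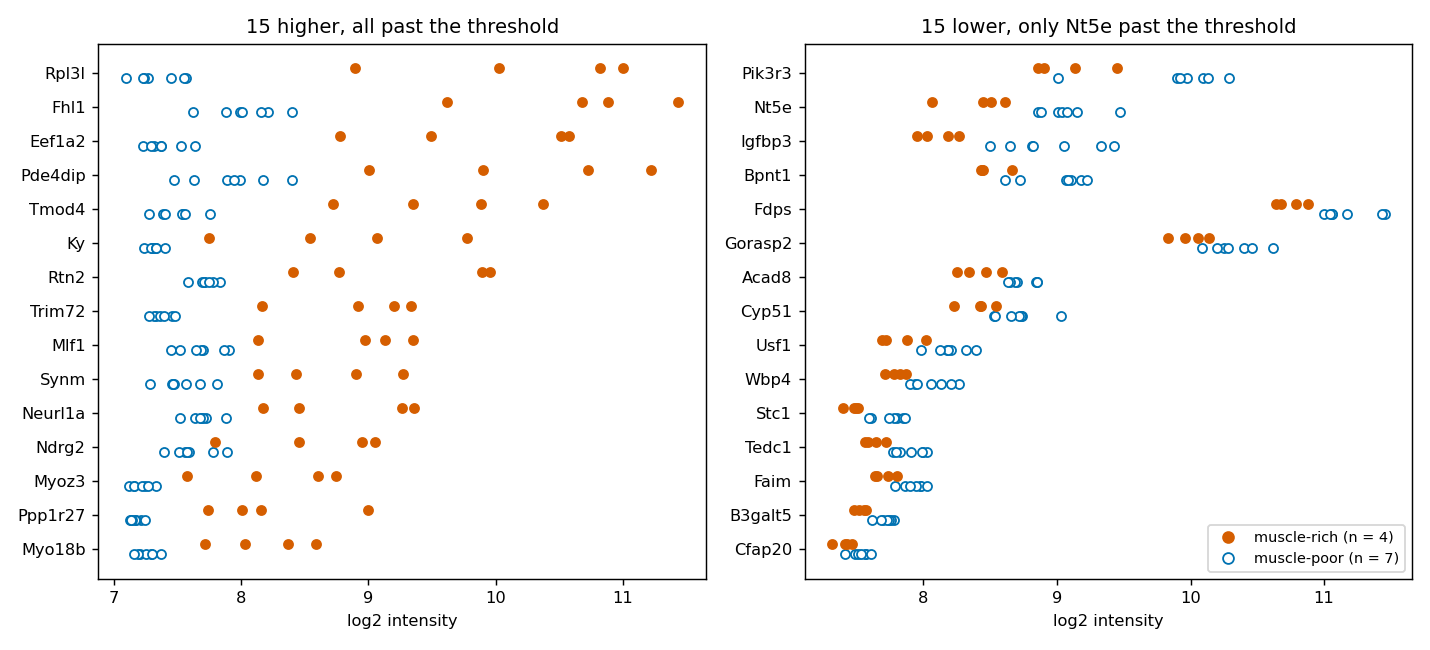
Log2 intensity in each tumour for the 15 genes on no muscle list with the largest changes among those called higher (left) and the 15 taken by the same naming order among those lower (right); filled circles are the 4 muscle-rich and open circles the 7 muscle-poor tumours. On the left only Ndrg2 overlaps; on the right only Nt5e passed the threshold.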

How the data were processed

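Probe intensities on a linear scale were deposited by the authors for 11 Illumina arrays; their background treatment and normalization: not given in the sources used here. Sorted values differed between arrays by at most 1.083%, so quantiles were already shared and nothing was rescaled. RNA was labelled as biotinylated cRNA, per the labels' protocols. The lowest intensity was 116.7 and array medians lay at 157.5 to 157.57, so without background subtraction changes of dim genes understate the change in RNA; no detection p-values were used, and precision is limited by the number of arrays.

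Of 45281 probes 34885 had 1 symbol in the platform annotation, 18 several and 10378 none. The probe with the highest mean was kept per gene, log2 was taken, and the lower 50% of 29453 features by mean were left out (below 158.6), leaving 14726, of which 11368 had a symbol. Muscle-rich and muscle-poor arrays were compared with limma 3.58.1 (R 4.3.3; lmFit, eBayes with trend) with genotype as covariate and Benjamini-Hochberg adjustment over all 14726, threshold 0.05. On simulated data for this comparison, over 14726 features, 46 of 67 genes changed by 0.5 (log2), 62 of 67 by 1 and 66 of 66 by 2 were recovered, with 8 false among 182 calls.

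Groups came from genotype labels and replicate numbers follow deposit order. The 35 lists (8 of muscle) hold 582 genes, 532 with a probe. Named genes were the markers, up to 15 per direction outside the muscle lists (largest change among those called, then smallest unadjusted p; predicted models took no place), up to 6 members per list, isoform pairs and Sirt6. The members and lists were chosen with earlier results of these data known. Alternatives were filters, probe rules, normexp background subtraction (offset 16), centring, eBayes settings, array weights, covariates, deposit order and each array left out. Promoter sequences are RefSeq's, assembly GRCm38.p6.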

Additional observations from a re-analysis of the deposited data

Results flagged for a closer look

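Means of the lists in each group were checked for a tumour far from the others by Dixon's 95% value, and 7 of 80 were; chance gives about 1 in 20. In the muscle-rich tumours, PyMT replicate 5 stood highest for mitochondrial regulators (8.338, others 8.259 to 8.271) and for fatty acid synthesis (9.977, others 9.395 to 9.474). PyMT/SIRT6 replicate 4 was highest for skin keratinocyte genes (7.868, others 7.609 to 7.621). PyMT/SIRT6 replicate 1 was highest for salivary gland genes (10.38, others 8.021 to 8.247), with Smr3a at 12.30 and Prol1 at 11.59, and without it the median change of that list was -0.24 instead of 0.41. In the muscle-poor tumours, PyMT replicate 2 was highest for slow or cardiac fibre genes (7.681), PyMT replicate 6 for macrophage genes (9.459) and PyMT replicate 3 for skin keratinocyte genes (8.238).

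The muscle-rich minus muscle-poor difference was compared between the genotypes by an interaction term of limma (PyMT/SIRT6 minus PyMT), which picked the features named here. For Ttn the term was -2.88 and for Myh1 -0.72. Both stand on the muscle lists, and their muscle-poor means (7.27 and 7.22) lay below the filter limit of 7.309. For the unnamed probes ILMN_2416670 and ILMN_2452484 the term was -3.04 and -0.83. In PyMT each rests on replicate 5 alone, so only the size is given.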

How the results depend on the processing

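No paired analysis was possible because replicate numbers follow deposit order and pair no tumours. Features called higher (87) numbered 35 with the lower 75% left out, 140 with every probe tested separately, 42 without trend, 149 with array weights, 27 with a deposit order block, 139 with the markers as a continuous covariate, 11 in PyMT/SIRT6 arrays alone and 47 without PyMT replicates 2 and 6 together, an alternative chosen after seeing the data. Leaving out each array gave 30 to 143. Features called lower (1) numbered 2 with the mean of the probes, 2 with every probe, 0 centred on the luminal list, 5 without trend, 96 with array weights, 2 without the genotype covariate, 0 with the deposit order block, 3 with the continuous covariate, 0 in PyMT/SIRT6 alone, 2 without PyMT replicates 2 and 6, and 1 to 2 with an array left out. Genes of lists outside muscle that were called (0) numbered 1 with every probe (Mbp), 1 with background subtraction (Pdk4), 1 centred on the luminal list (Ucp1), 3 with array weights (Aldoa, Pdk4 and Perm1), 1 without the genotype covariate (Pdk4), 3 with the continuous covariate (Pdk4, Ucp1 and Perm1) and 0 to 4 with an array left out (4 without PyMT/SIRT6 replicate 1). The cause of these shifts was not tested, except that fewer features or arrays enter where some are left out. With background subtraction the median change of the markers was 5.92 instead of 4.28, which bears on dim genes. Of the 15 genes named higher outside the muscle lists, 5 kept their call without PyMT replicate 5, 5 with the deposit order block, 9 without trend, 9 without PyMT replicates 2 and 6, and 0 in PyMT/SIRT6 arrays alone. Muscle list medians outside the atrophy genes, and those of the adipocyte, brown adipocyte and proliferation genes, kept their sign under every alternative run, whereas medians near 0, such as endothelium (5 alternatives) and citrate cycle (7), did not. The B and plasma cell list had no member left with the lower 75% left out.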

Other observations

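Genes of cholesterol synthesis, a list written after the values were seen, gave 13 negative and 2 positive changes among 15 tested, with a median of -0.24 beside -0.01 over all features. None was called (7 lower at an unadjusted limma p under 0.05), and being chosen on these values the list has no test. Fdps and Nsdhl did not overlap between the groups. Nsdhl, a sterol dehydrogenase, read 8.25, 8.09, 8.27 and 8.23 in the muscle-rich tumours against 8.36 to 8.73. Mvd, a decarboxylase of the mevalonate pathway, differed by -0.34 ± 0.11 (adjusted p = 0.338).

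Hypoxia genes, 14 tested, had a median change of -0.11, which was 0.03 without PyMT replicate 5, 0.07 with array weights and -0.01 with a block for deposit order. Egln3, an oxygen-sensing hydroxylase, read 9.97, 9.79, 9.97 and 10.02 against 10.06 to 11.63, and Ddit4, a stress gene, read 10.17, 10.17, 10.17 and 10.04 against 10.30 to 11.17. Both were lower without overlap and neither passed the threshold (limma adjusted p = 0.578 and 0.605). Pfkfb4, a regulator of glycolysis, was higher without overlap, at 8.07 to 8.24 against 7.77 to 7.96 (adjusted p = 0.329).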
